A study of Homo sapiens with 6 samples.

Results

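The genes described here are the insulin-like growth factor (IGF) binding proteins listed in a table of K1 cells, a human cell line of papillary thyroid carcinoma. They were chosen by symbol, as the rows of the authors' deposited table whose name starts with IGFBP, and they are 3 of its 986 genes: IGFBP3, IGFBP4 and IGFBP5. RNA sequencing compared 3 control libraries with 3 libraries from cells transfected with an sgRNA (guide RNA) directed at the microRNA miR-31, called miR-31 KO as in the sample titles. All cells were K1 cells grown in DMEM with 10% FBS and transfected, the controls with a control. The labels give neither the nature of that control nor whether the KO cells were 1 clone or a pool, and the series text speaks of duplicates where the titles number 3 libraries per group.

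All 3 IGFBP genes were lower in miR-31 KO cells in the authors' deposited table. IGFBP5 fell most, from 501 ± 278 to 82.0 ± 79.3 normalized counts (mean ± SD, n = 3 libraries per group, as for all values below). IGFBP3 fell from 827 ± 398 to 271 ± 170 and IGFBP4, the most abundant per length, from 9801 ± 3201 to 4862 ± 3038. Normalized counts are read counts per gene that the authors scaled between libraries. In both groups 1 library lay well apart from the other two, and the values of the groups overlapped for IGFBP3 and IGFBP4.

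IGF-binding proteins are secreted proteins that hold the growth factors IGF1 and IGF2 in blood and tissue and keep them from, or deliver them to, the type 1 IGF receptor. Proteases outside the cell cut the binding proteins and so release the growth factors, and several binding proteins also act at the cell surface or in the matrix. The IGF and insulin pathway acts with thyrotropin in the growth of thyroid follicular cells.

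The table is a selection. In the authors' test all of its genes lay below 0.05 in adjusted p and changed by 1 or more on the log2 scale, so that each IGFBP row had to differ in order to be listed, and its direction alone was not fixed. All 3 were lower, against 39.9% of all listed genes. The ratio of the deposited adjusted p to p gives 16806 tested genes, of which the listed genes are 5.87%. The family has 8 genes by name; IGFBP1, IGFBP2, IGFBP6, IGFBP7 and IGFBPL1 were not listed, so they were not analysed here and cannot be called unchanged. Neither MIR31 nor its host gene was listed, so the targeted gene gave no check of the labels. Separate cultures are not named in the labels, and p-values then cover only a spread among libraries that could be technical. Per library, the listed genes added up to between 545354 and 943360 normalized counts. Total depth is unknown, and no counting interval is given.

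The mature strand of the targeted microRNA is shown because its seed, bases 2 to 8 from the 5′ end and in capitals, defines the sites sought in the IGFBP transcripts (RefSeq, GRCh38.p14, chr9:21512158-21512178, minus strand).
hsa-miR-31-5p: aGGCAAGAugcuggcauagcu

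The 3 genes lie on different chromosomes (GENCODE 29, GRCh38; the table itself has no coordinates). IGFBP3 is on the minus strand of chromosome 7 from 45912245 to 45921874, next to IGFBP1, from which 18576 bp separate it. IGFBP4 is on the plus strand of chromosome 17 from 40443461 to 40457731. IGFBP5 is on the minus strand of chromosome 2 from 216672105 to 216695525, and 7668 bp separate it from IGFBP2. Promoter windows from 250 bases before to 50 bases after each RefSeq start (GRCh38.p14) are shown because the 3 genes were lower together in the same libraries. Capitals mark matches on either strand to the motifs searched, and no matches overlapped. They were GGGCGG, the GC box bound by Sp factors, CATTCC, bound by TEAD factors, GCCNNNGGC, bound by AP-2 factors, and the core promoter motif TATAAA. The windows are chr7:45921223-45921522 on the minus strand, chr17:40443200-40443499 on the plus strand and chr2:216695500-216695799 on the minus strand.
IGFBP3: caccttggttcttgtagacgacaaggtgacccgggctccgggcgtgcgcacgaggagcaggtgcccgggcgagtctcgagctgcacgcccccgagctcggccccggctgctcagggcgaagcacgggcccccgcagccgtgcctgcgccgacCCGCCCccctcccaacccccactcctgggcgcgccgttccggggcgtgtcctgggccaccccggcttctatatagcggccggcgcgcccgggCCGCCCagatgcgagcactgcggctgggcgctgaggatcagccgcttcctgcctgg
IGFBP4: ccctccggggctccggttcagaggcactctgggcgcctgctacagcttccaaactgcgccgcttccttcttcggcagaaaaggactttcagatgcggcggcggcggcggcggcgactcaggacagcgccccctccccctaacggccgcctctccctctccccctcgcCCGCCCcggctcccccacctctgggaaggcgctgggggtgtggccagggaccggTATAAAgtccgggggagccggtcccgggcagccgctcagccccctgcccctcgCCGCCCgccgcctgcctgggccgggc
IGFBP5: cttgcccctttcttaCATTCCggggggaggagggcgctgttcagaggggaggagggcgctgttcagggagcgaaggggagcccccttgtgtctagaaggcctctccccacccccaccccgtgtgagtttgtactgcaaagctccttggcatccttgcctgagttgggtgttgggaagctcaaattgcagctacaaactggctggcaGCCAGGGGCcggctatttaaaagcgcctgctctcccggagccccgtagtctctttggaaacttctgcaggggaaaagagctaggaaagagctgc

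The IGFBP3 window held 2 GC boxes, 98 and 6 bases before the start, and none of the other motifs. The IGFBP4 window held TATAAA 29 bases before the start, a GC box 83 bases before it and another 24 bases after it. The IGFBP5 window held CATTCC 235 bases before the start and an AP-2 match 44 bases before it, with no GC box. No searched motif was in all 3 windows. Only the exact letters were sought, so stretches close to TATAAA were not counted. Examples are ctatatag in the IGFBP3 window and ctatttaaaag in the IGFBP5 window. Of 35116 RefSeq promoter windows of the same length, 11.5% held TATAAA, 45.0% GGGCGG, 14.0% CATTCC and 23.2% GCCNNNGGC. The IGFBP3 and IGFBP4 windows were 74.7% and 74.0% G or C, and the IGFBP5 window was 59.0%, where the median window was 58.7%. These matches are letters in a window and were not measured as binding.

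IGFBP5 codes for a binding protein that also attaches to the extracellular matrix. In control replicates 1, 2 and 3 its normalized counts were 184, 706 and 611, and in miR-31 KO replicates 1, 2 and 3 they were 38.4, 34.0 and 174. The groups did not overlap, but the margin was narrow, since control replicate 1 was only 1.06 times KO replicate 3. The authors' deposited table gave a log2 fold change of -2.62 and an adjusted p of 0.000115. The difference of log2(value + 1) means was -2.79 (exact permutation test over the 6 libraries, two-sided, p = 0.1, the smallest p that 3 against 3 libraries can give). In bulk RNA a lower share of cells with a transcript and less of it per cell cannot be told apart, here and for the genes below.

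IGFBP3 codes for the main carrier of the IGFs in blood. Its normalized counts were 376, 971 and 1132 in the controls in replicate order, against 141, 210 and 463 in the KO libraries. The groups overlapped, because KO replicate 3 was 1.23 times control replicate 1. Control was higher in 8 of the 9 pairings of a control with a KO library. The authors' deposited table gave a log2 fold change of -1.61 and an adjusted p of 0.00114, and the difference of log2(value + 1) means was -1.64 (exact permutation test, two-sided, p = 0.2).

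IGFBP4 codes for a binding protein known mostly as an inhibitor of IGF action, cut by the protease PAPPA. Replicates 1, 2 and 3 of the control reached 6105, 11682 and 11615 normalized counts, and those of the KO reached 3052, 3165 and 8370. The groups overlapped here too, as KO replicate 3 was 1.37 times control replicate 1, and control was again higher in 8 of 9 pairings. The authors' deposited table gave a log2 fold change of -1.01, close to the smallest absolute change among listed genes (1.00), and an adjusted p of 0.0112. The difference of log2(value + 1) means was -1.12 (exact permutation test, two-sided, p = 0.2).

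**Figure D1:**
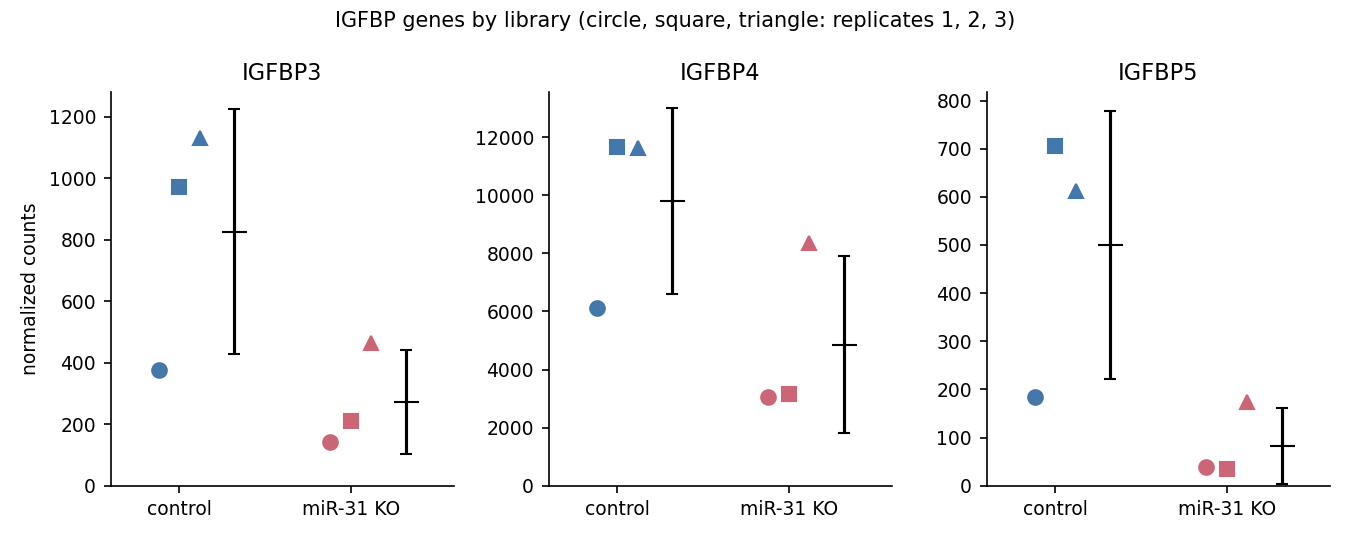
Normalized counts of IGFBP3, IGFBP4 and IGFBP5 (vertical axes, each from 0) in control (blue) and miR-31 KO (red) libraries; the black bar is the mean ± SD of 3 libraries. Control replicate 1 is the lowest control and KO replicate 3 the highest KO library in each panel, and the groups are apart for IGFBP5 alone, by 184 against 174.

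Of the 3 genes, 1 had groups that did not overlap, whereas 92.6% of all listed genes, and 94.9% of those listed as lower, did not overlap. The wide spread followed the same libraries in each gene. Among listed genes these libraries, control replicate 1 and KO replicate 3, also stood further from their groups. Pearson's r of log2 values was 0.977 between control replicates 2 and 3. With control replicate 1 it was 0.963 and 0.966. Between KO replicates 1 and 2 it was 0.971, and with KO replicate 3 it was 0.953 and 0.947. Control replicate 1 was the lowest control and miR-31 KO replicate 3 the highest KO library for all 3 IGFBP genes, an order found in 120 of the 393 listed lower genes (30.5%) and in 92 of the 234 with a mean of at least 50 (39.3%). Position between the groups was set on the log2(value + 1) scale, from 0 at the other two libraries of the own group to 1 at KO replicates 1 and 2 or, for a KO library, at control replicates 2 and 3. Control replicate 1 was at 0.57 for IGFBP3, 0.49 for IGFBP4 and 0.44 for IGFBP5, and KO replicate 3 was at 0.55, 0.75 and 0.54. The median over the 234 listed lower genes with a mean of at least 50 was 0.088 for control replicate 1 and 0.14 for KO replicate 3. Both positions were at least 0.4 in 16 of these 234 genes (6.84%), the 3 IGFBP genes among them, a limit chosen after the values were seen.

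**Figure D2:**
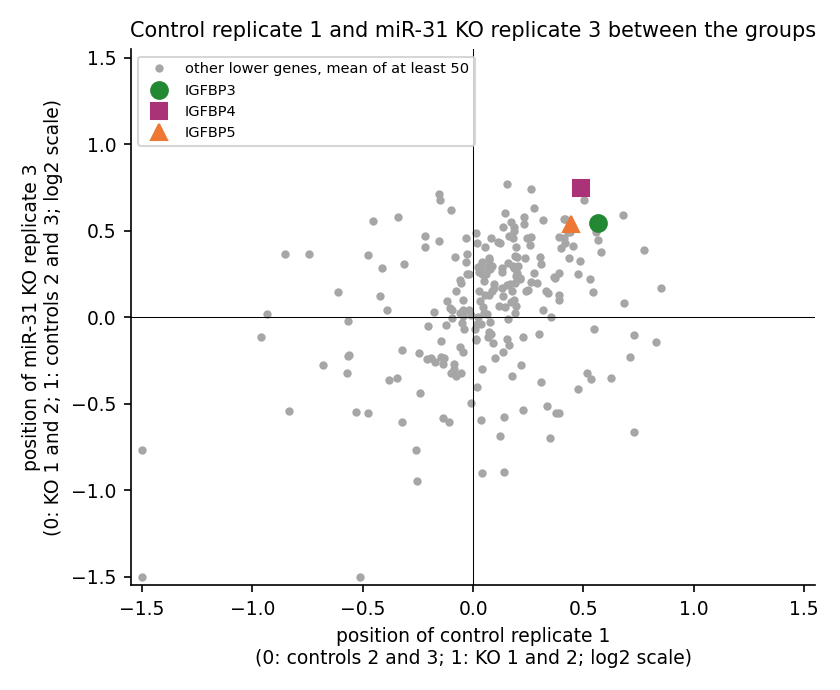
Position of control replicate 1 (horizontal axis) and of miR-31 KO replicate 3 (vertical axis) between the groups on the log2 scale for the 234 lower genes with a mean of at least 50; 3 grey points beyond -1.5 are drawn at the edge. The IGFBP genes lie at 0.44 to 0.57 and at 0.54 to 0.75, to the upper right of most grey points.

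Since these 2 libraries were the lowest control and the highest KO library, leaving them out was bound to enlarge the fall, and the values are given as a description. Control replicates 2 and 3 averaged 659 for IGFBP5, 1052 for IGFBP3 and 11649 for IGFBP4 in normalized counts, and KO replicates 1 and 2 averaged 36.2, 175 and 3108. The ratio of these means was 18.2 for IGFBP5, 5.999 for IGFBP3 and 3.75 for IGFBP4, against 6.11, 3.05 and 2.02 with all libraries. This set of 4 libraries was chosen after the values were seen.

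A refit set the authors' calls beside those of another method. Its adjustment counted every unlisted gene as having a larger p, which can only raise the adjusted p. In the authors' test the last listed gene ranked 3483 by p, so unlisted genes stood ahead of some listed ones. The part of this in the lost calls was not tested. Before adjustment, the p of the authors' test was 7.36e-06 for IGFBP5, 0.000108 for IGFBP3 and 0.00164 for IGFBP4. The unadjusted limma p, given below, was larger for each gene. In limma on log2(value + 1), which took its spread from the selected genes and was adjusted over 16806, the log2 fold change was -2.79 ± 0.71 (SE) for IGFBP5 (limma, adjusted p = 0.121), -1.64 ± 0.53 for IGFBP3 (limma, adjusted p = 0.290) and -1.12 ± 0.43 for IGFBP4 (limma, adjusted p = 0.580). None of the 3 was thus called by limma, which called 169 of all 986 listed genes lower (17.1%). Only 393 of the 986 were listed as lower, so this percentage and those below understate the share among lower genes. The unadjusted p was 0.00445 for IGFBP5, 0.0148 for IGFBP3 and 0.0331 for IGFBP4 (limma). Every listed gene was selected by p in the same libraries, so these values are no independent support. How many of all listed genes had such an unadjusted p was not counted. Leaving out either of the 2 libraries that lay apart was bound to enlarge the difference, so the following calls are no independent support. Without control replicate 1 or without KO replicate 3, limma called IGFBP5 with adjusted p of 0.0484 and 0.0488. In these refits 155 and 159 of all 986 listed genes were called lower (15.7% and 16.1%). With control replicates 2 and 3 against KO replicates 1 and 2 limma called all 3. The log2 fold changes were -4.15, -2.60 and -1.91 for IGFBP5, IGFBP3 and IGFBP4, and 201 of all 986 listed genes were called lower (20.4%).

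**Figure D3:**
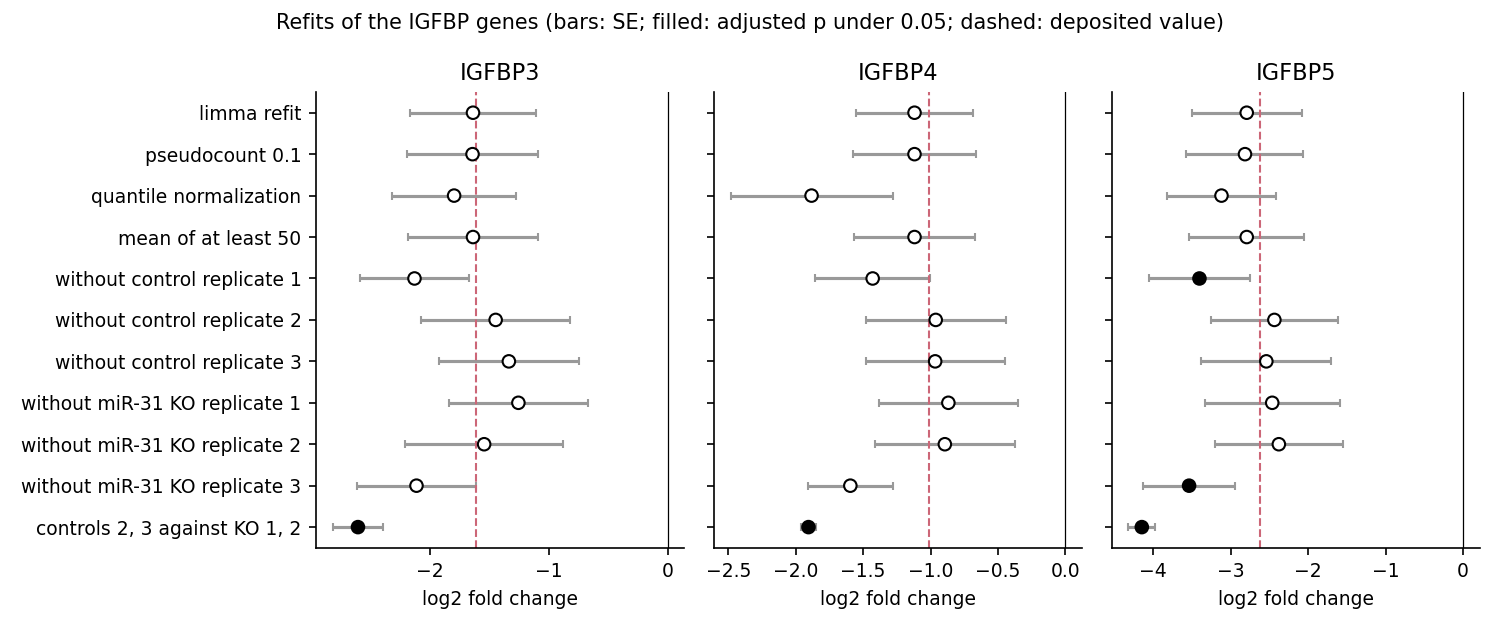
Log2 fold change of miR-31 KO over control (horizontal axes) for each IGFBP gene under 11 limma refits (vertical axis), with SE bars; filled points have an adjusted p under 0.05 and the dashed line is the deposited value. The refit with the replicate block, which called IGFBP3 and IGFBP5, is not drawn. Every point is below 0, but the genes were listed for their change in these same libraries. All 3 genes are filled only for controls 2 and 3 against KO replicates 1 and 2. That set is without the lowest control and the highest KO library of each gene.

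Ratios of one IGFBP gene to another within a library do not depend on how libraries were scaled. IGFBP5 counts were 3.01%, 6.05% and 5.26% of IGFBP4 counts in control replicates 1, 2 and 3, and 1.26%, 1.07% and 2.07% in the KO replicates. The groups did not overlap, and the geometric mean of the ratio was 3.25 times lower in KO (exact permutation test, two-sided, p = 0.1, the smallest possible; adjusted over 3 ratios, 0.15). IGFBP5 was 48.9%, 72.8% and 54.0% of IGFBP3 in the controls and 27.3%, 16.2% and 37.5% in the KO replicates, again without overlap (exact permutation test, p = 0.1, adjusted 0.15). For IGFBP3 against IGFBP4 the values were 6.16%, 8.31% and 9.75% in the controls and 4.61%, 6.64% and 5.53% in the KO replicates. These overlapped (exact permutation test, p = 0.2, adjusted 0.2). Every KO library thus had less IGFBP5 relative to either other gene than every control, although 3 against 3 libraries cannot pass a threshold of 0.05. The direction follows from the larger fall of IGFBP5 given above. The 3 ratios share genes and are not independent. How often ratios of other listed lower genes stay apart was not counted.

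**Figure D4:**
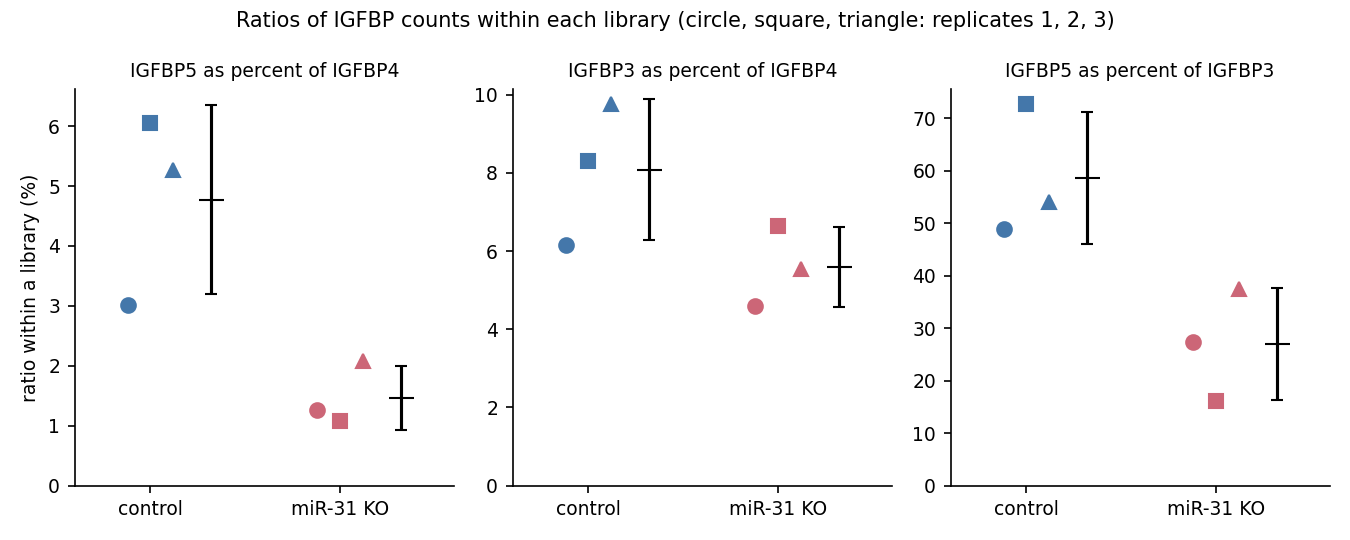
Counts of one IGFBP gene as a percent of another within each library (vertical axes, from 0) for control (blue) and miR-31 KO (red); the black bar is the mean ± SD of 3 libraries. Both ratios with IGFBP5 on top are apart between groups, and IGFBP3 as a percent of IGFBP4 overlaps.

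Per length, IGFBP4 was by far the most abundant of the 3 transcripts. Divided by the merged exon length in GENCODE 29, it had 4455 ± 1455 normalized counts per kb in control and 2210 ± 1381 in miR-31 KO. IGFBP3 had 181 ± 87.1 and 59.3 ± 37.2 per kb, and IGFBP5 had 77.7 ± 43.2 and 12.7 ± 12.3. The order IGFBP4, IGFBP3, IGFBP5 held in each of the 6 libraries. IGFBP4 made up 93.9% to 96.2% of the sum of the 3 levels per kb in control and 96.6% to 97.4% in KO. Merged exon length may differ from the length the authors' counting used.

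The other listed genes of the IGF system were higher, not lower, in miR-31 KO. Of 126 genes in 9 lists, 16 were in the table, where 5.87% of all tested genes were. They were the 3 IGFBP genes, lower, and 13 others, all higher, where 60.1% of all listed genes were higher. The lists were chosen with earlier results of these data known, so these counts are a description. None of the 13 had overlapping groups, as for 91.1% of the listed higher genes. The median deposited log2 fold change of the 13 was 2.22, and that of the 593 listed higher genes was 2.14. None of the 4 ligand genes and none of the 3 IGF2 mRNA-binding proteins, which share only the name, was listed.

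Among the 4 receptor genes, INSR, the insulin receptor, which also binds IGF2, had 60.6, 65.1 and 55.0 normalized counts in the controls and 248, 223 and 179 in the KO replicates. It rose without overlap, by a log2 fold change of 1.85 (the authors' deposited table, adjusted p = 2.99e-11). INSRR, a receptor of the same family, stayed low, with 2.14, 0.00064 and 1.97 in control and 9.23, 8.29 and 24.1 in KO (the authors' deposited table, adjusted p = 0.00161). The type 1 IGF receptor gene IGF1R was not listed.

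Extracellular proteases that cut IGF-binding proteins, with their inhibitors, had 5 of 27 genes listed, all higher, where 5.87% of tested genes were listed. The count was the largest of the lists but the share was not. Of the receptor list 2 of 4 were listed, of the binding protein list 3 of 9 and of the related proteins 2 of 8. PAPPA2, a metalloprotease that cuts IGFBP3 and IGFBP5, had 325, 200 and 171 normalized counts in the controls and 1515, 1648 and 721 in the KO replicates. It rose without overlap (the authors' deposited table, log2 fold change 2.48, adjusted p = 2.47e-14). The PAPPA2 count was 176%, 28.4% and 28.0% of the IGFBP5 count in control replicates 1, 2 and 3, and 3944%, 4850% and 416% in the KO replicates. That ratio pairs a higher gene with a lower one and was not tested. The matrix metalloproteinases MMP1, MMP2 and MMP3, which can cut IGF-binding proteins besides matrix, rose with deposited log2 fold changes of 3.39, 2.46 and 2.22 in the authors' deposited table. MMP3, also called stromelysin, had 1460, 681 and 538 in control and 4324, 4324 and 3858 in KO. ADAM28, a membrane-bound metalloprotease reported to cut IGFBP3, had 7.56, 8.01 and 5.89 in control and 15.8, 24.9 and 33.5 in KO (the authors' deposited table, adjusted p = 0.00516).

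Of 8 proteins related to the IGFBP family, 2 were listed and higher. ESM1, a secreted proteoglycan with an IGFBP-like domain, rose from 540 ± 97.2 to 2013 ± 500.2 normalized counts (the authors' deposited table, log2 fold change 1.90, adjusted p = 1.74e-20). WISP1, a matrix protein of the CCN family, had 0.0065, 1.00 and 0 in control and 7.75, 5.78 and 16.04 in KO. Of 16 surface and matrix partners, ITGB3, an integrin subunit, rose from 7960 ± 1705 to 17838 ± 2898. Of 30 signalling genes, GRB14, an adaptor that inhibits the insulin receptor, had 283, 160 and 167 in control and 795, 755 and 316 in KO (the authors' deposited table, adjusted p = 2.28e-05). Of 25 reported regulators of IGFBP genes, RARB, a retinoic acid receptor, rose from 56.8 ± 10.0 to 141 ± 11.7, and CEBPA had 0.0065, 1.00 and 0 in control and 3.82, 4.30 and 4.35 in KO.

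**Figure D5:**
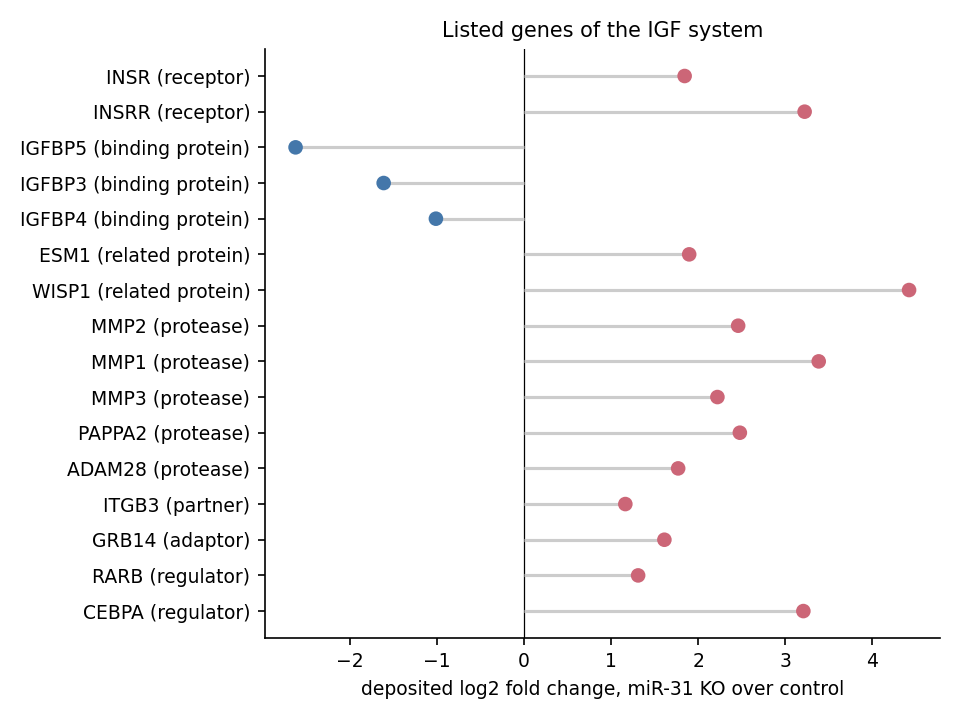
Deposited log2 fold change of miR-31 KO over control (horizontal axis) for the 16 listed genes of the IGF lists (vertical axis), with the role of each in brackets. The 3 IGFBP genes lie below 0, at -2.62 to -1.01, and the other 13 genes above 0, from 1.16 to 4.42.

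The library order seen in the IGFBP genes appeared in mirror image in some of these genes. Control replicate 1 was the highest control and KO replicate 3 the lowest KO library in 6 of the 13, namely PAPPA2, MMP1, MMP2, MMP3, ITGB3 and GRB14. The same held for 181 of the 593 listed higher genes (30.5%), and for 46.3% of those with a mean of at least 50. IGFL3, an IGF-like gene outside the lists and named after its values were seen, was listed at 0 in all controls and had 7.18, 0.68 and 5.28 in KO.

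The listed genes whose pattern was most like each IGFBP gene were found by Pearson's r of log2(value + 1) over the 6 libraries, among 520 other genes with a mean of at least 50. The likeness includes the difference between the groups, so r is a description without a test. For IGFBP3 they were PLXNA4, a semaphorin co-receptor, BDNF, a neurotrophin, and SUSD4, with r of 0.996, 0.987 and 0.984. PLXNA4 had 372, 1138 and 1225 normalized counts in the controls and 129, 160 and 445 in the KO replicates, close to the IGFBP3 values in each library. For IGFBP4 they were MAP2, a microtubule-associated protein, PLXNA4 and RGS4, a regulator of G protein signalling, with r of 0.995, 0.981 and 0.980. For IGFBP5 they were ZNF385D, SEMA3E, a secreted semaphorin, and MXRA5, with r of 0.998, 0.998 and 0.994. ZNF385D had 126, 273 and 228 in the controls and 52.5, 51.8 and 114 in the KO replicates, the same order at a smaller fold. The IGFBP genes themselves were like each other to r of 0.972 to 0.978, ranking between 4 and 20 among the 520.

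Few listed genes, matched to GENCODE 29 by symbol, lay near the IGFBP genes, and they did not share one direction. Within 1 Mb of IGFBP3 only NACAD was listed, 823331 bp away and lower (the authors' deposited table, log2 fold change -1.08). Within 1 Mb of IGFBP5 only TMEM169 was listed, 569322 bp away and lower (-1.17). Near IGFBP4 5 genes were listed, with CSF3, GSDMA and KRT34 higher and KRTAP4-11 and KRTAP2-3 lower.

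A site for the miR-31-5p seed was sought in the longest annotated 3′ UTR of each gene (GENCODE 29), as TCTTGCC or CTTGCCA on the transcript strand. The IGFBP4 3′ UTR of 1148 bases held 1 site, CTTGCCA at base 626, shown in capitals in its context (chromosome 17).
IGFBP4 site: ccaaagctcagaCTTGCCAggctccctttc
The IGFBP3 and IGFBP5 3′ UTRs of 1605 and 4646 bases held neither sequence. Of 956 listed genes with an annotated 3′ UTR, 202 (21.1%) held one or the other. The IGFBP gene with a site was lower in miR-31 KO, as were those without one. Whether a site went with the direction of change was not tested.

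Some markers of cell types were listed, and each had to differ between the groups in order to be listed. The markers not listed cannot be called unchanged. Of 15 thyroid markers 3 were listed, SLC26A4, DUOX2 and DUOXA1, all lower, with summed normalized counts of 100.4 to 163 in control and 32.7 to 38.2 in KO. TG, TSHR and PAX8 were not listed, so the thyroid identity of the cells was not checked here. Of 6 epithelial markers KRT7 and KRT19 were listed, both lower, summing to 1104 to 1832 in control and 451 to 657 in KO. Of 8 fibroblast markers LUM and PDGFRA were listed, both higher, with sums of 2.01 to 8.49 in control and 26.7 to 42.5 in KO; LUM was listed at 0 in all controls. Of 8 endothelial markers TIE1 and KDR were higher and ERG lower, with sums of 1386 to 2232 in control and 4482 to 6158 in KO. Of 7 leukocyte markers CD3D, listed at 0 in all controls, and ITGAM were higher, with sums of 5.62 to 20.03 in control and 21.9 to 97.7 in KO. ITGAM alone overlapped between the groups, with 20.0 in control replicate 2 and 17.9 in KO replicate 1. The part of these differences in the IGFBP results was not tested.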

How the data were processed

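The 6 K1 libraries were grouped by sample title into 3 control and 3 miR-31 KO libraries. Trizol extraction and standard Illumina library preparation are stated, per the labels' protocols. Bowtie2, HISAT, RSEM, hg19 and hg38 are named without a role, per the submitters' processing notes, and for the authors' scaling and test nothing is given in the sources used here. In the deposited table the 6 library columns are a signal unit: read counts per gene normalized by the authors. They are not whole, so no count model was run. The authors also deposited a log2 fold change, a p-value and an adjusted p-value per gene, which are the main result here. Each fold change had the sign of its group means (986 genes).

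The members and gene lists were chosen with earlier results of these data known. Genes named are all IGFBP rows, listed genes of the IGF lists (up to 4 per list by adjusted p, and the remaining protease), and the 3 genes most like each IGFBP gene. Refits with limma 3.58.1 (R 4.3.3, eBayes with trend) used log2(value + 1) of the listed genes, and so took their spread from selected genes. Benjamini-Hochberg adjustment was over 16806 genes. Genes outside a refit were counted as having larger p, which can only raise the adjusted p. They were repeated with a pseudocount of 0.1, after quantile normalization, above a mean of 50, with the replicate block, and leaving out each library. The refit was first run on simulated counts of all 16806 genes, with no library set apart. That run does not cover a refit on selected genes. No 2 libraries held identical values. Python 3.11.15, pandas 2.3.3 and scipy 1.17.1 were used for the rest. Sequences come from RefSeq (GRCh38.p14) and GENCODE 29, and all 3 IGFBP genes matched by symbol.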

Additional observations from a re-analysis of the deposited data

How the results depend on the processing

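All 36 refitted values of the 3 IGFBP genes were below 0. The genes were listed for their change in these same libraries, so this shared sign is no independent support. Limma called 7 of the 36 values. Of these, 3 came from control replicates 2 and 3 against KO replicates 1 and 2, and 2 from the replicate block. Leaving out control replicate 1 gave 1 call, and leaving out KO replicate 3 gave 1. The log2 fold changes that lost their call, for IGFBP3, IGFBP4 and IGFBP5 in turn, were -1.64, -1.12 and -2.79 in the limma refit, -1.64, -1.12 and -2.82 with a pseudocount of 0.1, -1.79, -1.88 and -3.12 after quantile normalization, and -1.64, -1.12 and -2.79 with a mean of at least 50. Quantile normalization moved the median of all listed genes by -0.52 on the log2 scale. At an adjusted p threshold of 0.01 the deposited call of IGFBP4 (-1.01) was lost. In each of those 4 refits limma called 0 of the 3, and 3 had an unadjusted p under 0.05. The share of all listed genes with such a p was not counted, and all were selected by p in these libraries. Leaving out 1 library gave -2.13 to -1.25 for IGFBP3, -1.60 to -0.87 for IGFBP4 and -3.54 to -2.38 for IGFBP5, with 0 to 1 of the 3 called. Groups did not overlap for 1 to 3 of the 3 genes: 3 without control replicate 1, 3 without KO replicate 3, and 3 without both, where 97.5%, 98.1% and 98.8% of all listed genes did not overlap. These libraries were the lowest control and the highest KO library of each gene, so leaving them out could only part the groups. The adjustment counted genes outside a refit as having larger p, which can only raise the adjusted p. The cause of the lost calls was not tested. With the replicate block limma called 2 of the 3 (IGFBP4 at -1.12 was not called) and 417 listed genes. Same-numbered libraries correlated in their deviations by 0.20, -0.13 and 0.15, and not every library correlated best with its own number, so same numbers were not treated as pairs. Of the 986 listed genes limma called 447, 389 with a pseudocount of 0.1, 459 after quantile normalization, 261 of the 521 genes with a mean of at least 50, 156 to 420 with 1 library left out, and 505 with control replicates 2 and 3 against KO replicates 1 and 2. A refit without the authors' filter needs a table of all genes and was not run. Total depth is unknown, so what it limits could not be set.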
